A study of Mus musculus with 14 samples.

Results

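Tet2, Tet3, Dnmt3a, Idh2 and Rhoa are the mouse counterparts of genes linked to angioimmunoblastic T-cell lymphoma, a human tumour derived from follicular helper (Tfh) T-cells, and they were measured here in CD4+ T-cells of Roquin san/+ and wild-type mice. The 5 genes were found by gene name among the array's probes, which gave 12 probes of 56605. In all 14 samples were hybridised to one-colour arrays, 1 to an array, 7 of them Roquin san/+ and 7 wild-type. Roquin san/+ mice are heterozygous for the sanroque allele of Roquin, an RNA-binding ubiquitin ligase encoded by Rc3h1, and the strain is a model of Tfh lymphoma. The allele is inherited and not confined to T-cells, and both groups were CD4+ T-cell preparations. The labels give neither the age or sex of the mice, nor the organ the cells came from, nor whether a mouse had lymphoma. Nothing beyond the separate labels says that each array was a separate animal, so the p-values measure the spread between these samples.

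TET2 and TET3 are dioxygenases that oxidise 5-methylcytosine in DNA, the opening step of active demethylation, and they need 2-oxoglutarate as a co-substrate. DNMT3A works in the other direction and places new methyl groups on cytosine. IDH2 is the mitochondrial NADP-dependent isocitrate dehydrogenase, which makes 2-oxoglutarate, and the mutant enzyme found in human lymphoma makes 2-hydroxyglutarate instead, which inhibits TET enzymes. RHOA is a small GTPase that controls the actin cytoskeleton and T-cell migration and signalling. In human Tfh lymphoma these genes are known for mutations in their coding sequence. An expression array reads the amount of RNA and carries no information on such mutations.

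The probes the comparisons rest on are shown so that it is clear which stretch of each gene was read. Each probe is 60 bases long, of which the first 30 are given 5′ to 3′, with capitals marking the stop triplets TAA, TAG and TGA in any frame.
Tet2 A_55_P2081303: gcttacttccTGAgattttggctttgttta
Tet3 A_52_P491273: accaaggcTGAgaacccactcacaccaacc
Dnmt3a A_55_P2178084: atgtTGAtgtggaatcttactttcaaatgg
Idh2 A_55_P2118684: gTAAtttatattgctctggaatcacatggt
Idh2 A_51_P331507: ctaTAAgacTGActtcgacaggaaTAAgat
Rhoa A_55_P2008081: gtctcatgttggttaccttaTAGttactgt
In the coordinates of the array design (build mm9), the Tet2 probe lies on the minus strand at chr3:133126751-133126810 and the Tet3 probe on the minus strand at chr6:83352743-83352802. The Dnmt3a probe lies on the plus strand at chr12:3914320-3914379 and the Rhoa probe on the plus strand at chr9:108239660-108239719. The Idh2 probes lie on the minus strand, A_55_P2118684 at chr7:87239736-87239795 and A_51_P331507 at chr7:87242779-87242838. Over their whole 60 bases, Idh2 A_55_P2118684 and the Rhoa probe had a stop triplet in every reading frame, whereas Idh2 A_51_P331507 had 2 frames without one and the Tet3 probe had 1. The files place the probes on transcripts without naming exon or untranslated region, and no mm9 annotation was used here. The 2 Idh2 probes thus read separate stretches of the message, starting at bases 1639 and 892 of the transcript.

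On 2 arrays, Roquin san/+ G and wild-type E, the spots lay 2 grid rows away from their probe names and were moved back before any value was taken. Their correlation with the median array rose from -0.0047 and -0.0037 as deposited to 0.978 and 0.960. Their detection calls and lowest signals, 223 and 106 against 2.13 to 7.34 on the other arrays, could not be repaired, so dim probes have only a floor on them. Well-placed arrays had 53.5% to 75.5% of probes well above background. The arrays lay on 2 slides, slide 1 with 5 Roquin san/+ and 2 wild-type arrays and slide 2 with 2 and 5. Roquin san/+ C stood apart, with a correlation of 0.85 with the median array and a 75th percentile of detected probes of 299.7 against 1580 to 4453 elsewhere. All 7 markers of CD4+ T-cells, among them Cd3e, Cd4 and Lck, were well above background on every well-placed array. Roquin san/+ F had the highest summed level of the B-cell, myeloid, NK, erythroid and CD8 markers of any array and the lowest of the CD4+ T-cell markers. The B-cell list, of which 5 of 7 genes were detected on all 12 well-placed arrays, had summed log2 levels of 0.30 to 5.83 in Roquin san/+ and -0.60 to 3.85 in wild-type, with none of its genes at background on every array. In such bulk RNA, fewer cells of a type and less RNA per cell cannot be told apart. Rc3h1 itself differed by -0.12 between genotypes (95% CI -0.49 to 0.24, limma adjusted p = 0.905). This is an amount of RNA and carries no information on the sanroque point mutation.

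Levels below are log2 signals relative to the 75th percentile of the same array, and differences are Roquin san/+ minus wild-type on that scale. Levels of different probes are not set against each other, because probes differ in how strongly they bind. Of the 12 probes, 10 were well above background on at least 6 of the 12 well-placed arrays and were tested. None of the 10 was called at an adjusted p below 0.05 (limma, Benjamini-Hochberg over 32831 probes), where the share over all probes was 0%. None of them had an unadjusted p below 0.05 either, a threshold that 997 of the 32831 probes (3.04%) passed. Of the 10, 6 were lower and 4 higher in Roquin san/+, and the median difference of all tested probes was 0.05. The 95% confidence intervals show which sizes of difference these arrays leave possible for each gene. By the brightest probe of each gene they were narrowest for Rhoa, from -25.6% to 10.6% on the linear scale, and for Idh2, from -36.9% to 4.86%. For the second Idh2 probe the interval ran from -49.9% to 19.5%.

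**Figure D1:**
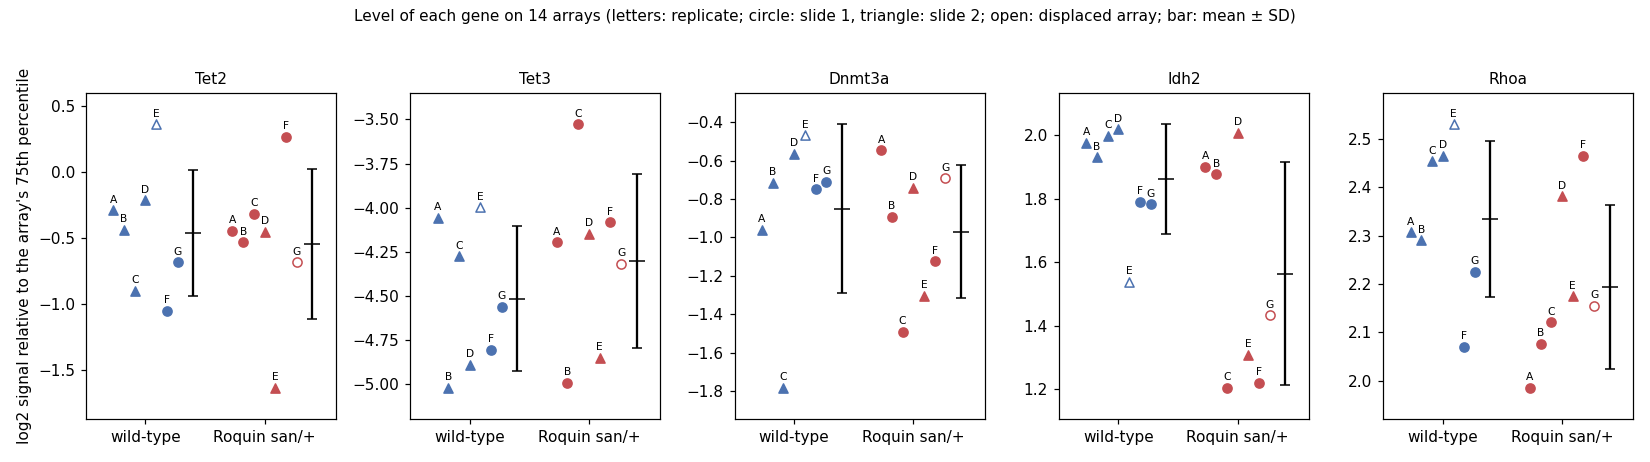
Log2 level of Tet2, Tet3, Dnmt3a, Idh2 and Rhoa (vertical axes, each gene with its own range) on the 7 wild-type and 7 Roquin san/+ arrays, with letters for replicates, circles for slide 1, triangles for slide 2, open symbols for the 2 displaced arrays and bars for mean ± SD. The genotypes overlapped for every gene, and for Idh2 the Roquin san/+ arrays C, E, F and G lay below the lowest wild-type array at 1.54.

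Tet2, the TET enzyme most often mutated in human Tfh lymphoma, showed no difference beyond the spread between arrays. Its brightest probe ran from -1.64 through a median of -0.46 to 0.26 in Roquin san/+ and from -1.06 through -0.44 to 0.36 in wild-type. The highest Roquin san/+ array was F and the lowest was E, which lay below every wild-type array, while the other 6 lay within the wild-type range. The means were -0.55 ± 0.57 and -0.46 ± 0.48 (SD, n = 7 each), a difference of -0.08 (95% CI -0.67 to 0.51, limma adjusted p = 0.964, two-sided exact permutation p = 0.781). Within slides the sign was not the same. On slide 1 the difference was 0.53 (exact permutation p = 0.143) and on slide 2 it was -0.75 (exact permutation p = 0.190), with as few as 2 arrays of a genotype on a slide. Without Roquin san/+ E the difference was 0.10, and without both displaced arrays it was 0.08.

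The other Tet2 probes were dimmer. A_55_P2745200, which the files place on the same main transcript nearer its start, ran from -6.16 to -3.11 in Roquin san/+ and from -4.47 to -3.64 in wild-type. Roquin san/+ E was again the lowest array, and without it the other 6 Roquin san/+ arrays lay between -3.87 and -3.11. The difference was 0.09 (95% CI -0.75 to 0.92, limma adjusted p = 0.974), and without Roquin san/+ E it was 0.48 (exact permutation p = 0.0105, limma adjusted p = 0.649). For this probe that was the only exact permutation p below 0.05 in 29 computations, and the sign turned in 13 of 34 other fits. A_55_P2074075, on a separate transcript, ran from -4.32 to -2.18 against -4.09 to -2.88, with a difference of 0.18 (95% CI -0.49 to 0.86, limma adjusted p = 0.924). Its highest array was Roquin san/+ C, without which the difference was -0.0091, and its lowest, Roquin san/+ G, was at the floor of that displaced array.

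Tet3, the second TET enzyme expressed in T-cells, had no difference beyond its spread. The brighter probe, A_52_P491273, ran from -4.99 through -4.20 to -3.53 in Roquin san/+ and from -5.02 through -4.56 to -4.0 in wild-type. Roquin san/+ C was the highest array of all, and Roquin san/+ G and wild-type E carried the floor of their array in place of a level. The means were -4.30 ± 0.49 and -4.52 ± 0.41 (SD, n = 7 each), and the difference was 0.21 (95% CI -0.31 to 0.74, limma adjusted p = 0.890, two-sided exact permutation p = 0.398). Without both displaced arrays it was 0.30 (exact permutation p = 0.288), and without Roquin san/+ C as well it was 0.15. Without Roquin san/+ C alone it was 0.084, without wild-type B 0.13 and without Roquin san/+ B 0.33. Quantile normalization turned the sign, to -0.58, and so did the authors' own log2 values, to -0.15. The other Tet3 probe, A_55_P2175260, was at -2.28 on Roquin san/+ C and between -5.62 and -4.32 on the other 6 Roquin san/+ arrays, against -5.55 to -4.0 in wild-type. Its difference of 0.45 (95% CI -0.53 to 1.43, limma adjusted p = 0.886) was 0.034 without Roquin san/+ C.

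Dnmt3a, the de novo methyltransferase, ran from -1.49 through -0.89 to -0.55 in Roquin san/+ and from -1.78 through -0.72 to -0.47 in wild-type. All 7 Roquin san/+ arrays lay within the wild-type range, whose lower end was set by wild-type C alone. The other 6 wild-type arrays lay between -0.96 and -0.47, and Roquin san/+ C, E and F lay below them. The means were -0.97 ± 0.35 and -0.85 ± 0.44 (SD, n = 7 each), with a difference of -0.12 (95% CI -0.59 to 0.35, limma adjusted p = 0.928, two-sided exact permutation p = 0.584). Without wild-type C the difference was -0.28, and without both displaced arrays and Roquin san/+ C and F it was 0.04. The dimmer tested probe, A_52_P169048, differed by -0.01 (95% CI -0.42 to 0.39, limma adjusted p = 0.993), with the floor on both displaced arrays, and by 0.04 without them.

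The remaining Dnmt3a probes read separate transcripts and were mostly at background, so that they were left out of the limma fit. A_55_P2719189 was well above background on 1 of the 6 well-placed arrays of each genotype. A_55_P2719195 was well above background on Roquin san/+ C, D, E and F and on wild-type A, that is on 4 of 6 and 1 of 6 well-placed arrays. Its levels ran from -7.59 to -2.75 in Roquin san/+ and from -8.33 to -4.0 in wild-type, the last being a floor. Roquin san/+ G, at -4.32, also carried the floor of its array, and in its genotype only Roquin san/+ C lay higher. The difference was 1.36 (two-sided exact permutation p = 0.121, unadjusted), 1.64 without both displaced arrays (exact permutation p = 0.0195), 1.86 without wild-type E (exact permutation p = 0.0192) and 0.88 without Roquin san/+ C (exact permutation p = 0.244). The value without wild-type E keeps the floor of Roquin san/+ G. With detection on 1 wild-type array, and with Roquin san/+ A and B also not well above background, these values largely compare levels with background.

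Idh2 had the lowest permutation p of the 5 genes. The brightest probe ran from 1.20 through 1.43 to 2.01 in Roquin san/+ and from 1.54 through 1.93 to 2.02 in wild-type. Roquin san/+ A, B and D, at 1.90, 1.88 and 2.01, lay within the wild-type range, whereas C, E, F and G, at 1.20, 1.31, 1.22 and 1.43, lay below every wild-type array. The lowest wild-type array was the displaced array E at 1.54, and the other 6 lay between 1.78 and 2.02. The means were 1.56 ± 0.35 and 1.86 ± 0.17 (SD, n = 7 each), a difference of -0.30 (95% CI -0.66 to 0.07), or -18.7% on the linear scale. It was not called (limma adjusted p = 0.884, two-sided exact permutation p = 0.0653). The sign was negative on slide 1, at -0.26, and on slide 2, at -0.24, and in each of the 36 other computations tried, from -0.42 to -0.08. The value nearest 0 came with array weights, which give less weight to arrays that depart from the rest. Fits without 1 of the 14 arrays ran from -0.37 to -0.24.

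The second Idh2 probe, A_51_P331507, separated the arrays in nearly the same way. Roquin san/+ A, B and D were at -1.97, -2.14 and -2.22, near 6 wild-type arrays at -2.24 to -1.83. Roquin san/+ C, E and F were at -3.29, -3.50 and -3.04, wild-type E was at -3.41, and Roquin san/+ G, at -2.49, lay between. On the displaced arrays wild-type E and Roquin san/+ G this probe was not called well above background, though it was not at their floor. The difference was -0.37 (95% CI -1.0 to 0.26, limma adjusted p = 0.884, two-sided exact permutation p = 0.238), and it was -0.59 without both displaced arrays (exact permutation p = 0.0974). Without wild-type E alone it was -0.56 (exact permutation p = 0.0653, limma adjusted p = 0.510), and without Roquin san/+ E alone it was -0.23. Arrays low for Idh2 also differed from the rest in other measures. The correlation with the median array was 0.852, 0.971, 0.956 and 0.978 on Roquin san/+ C, E, F and G and 0.960 on wild-type E, against 0.988 to 0.994 on Roquin san/+ A, B and D. Wild-type C, at 0.959, was not low for Idh2, with 2.0 for the brightest probe. Without both displaced arrays and Roquin san/+ C and F the difference of the brightest probe was -0.14. Eif2s3y, a Y-linked gene, was at -0.76, -2.18 and -1.28 on Roquin san/+ E, Roquin san/+ G and wild-type E, its lowest values, and at -0.27 and 0.33 on Roquin san/+ C and F. Xist, a transcript of female cells, was at -5.62, -3.02 and -6.44 on Roquin san/+ E, G and C and at the floor of -4.0 on wild-type E, against -9.99 to -8.59 on the other 10 arrays. The summed log2 level of the myeloid markers was 8.10 and 8.31 on Roquin san/+ C and F against 5.40 to 7.03 elsewhere, and that of the CD4+ T-cell markers was 5.67 and 5.47 against 5.78 to 6.88. On Roquin san/+ E and G these sums, 5.80 and 5.95 for myeloid and 6.85 and 6.54 for CD4+ T-cell markers, lay within the range of the other arrays. The part of array quality, cell content and sex in the Idh2 values was not tested.

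**Figure D2:**
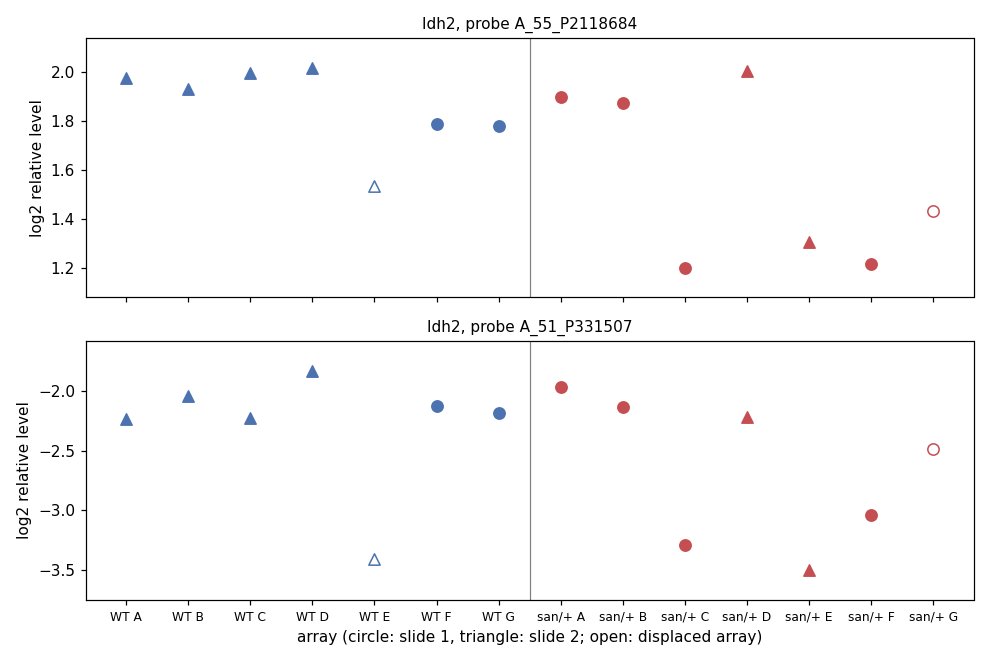
Log2 level of Idh2 (vertical axes) for its 2 probes on each of the 14 arrays (horizontal axis, WT for wild-type and san/+ for Roquin san/+, circles for slide 1, triangles for slide 2, open symbols for displaced arrays). Roquin san/+ C, E and F and wild-type E were low for both probes, Roquin san/+ G was low for the brightest probe (1.43) and between the others for A_51_P331507 (-2.49), and Roquin san/+ A, B and D lay with the remaining wild-type arrays.

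Rhoa had the narrowest spread of the 5 genes. Its only probe ran from 1.99 through 2.15 to 2.47 in Roquin san/+ and from 2.07 through 2.31 to 2.53 in wild-type. The lowest array was Roquin san/+ A and the highest was wild-type E, and 6 of 7 Roquin san/+ arrays lay within the wild-type range. The means were 2.19 ± 0.17 and 2.33 ± 0.16 (SD, n = 7 each), a difference of -0.14 (95% CI -0.43 to 0.14, limma adjusted p = 0.884, two-sided exact permutation p = 0.140). On slide 1 the difference was 0.01 and on slide 2 it was -0.13, and with slide as a block it was -0.06. The spread of Rhoa within genotypes, an SD of 0.17, was below that of all but 1.24% of tested probes, whose median SD was 0.57. By their brightest probes, Idh2, at 0.28, stood at the 11.2 percentile of this spread, Dnmt3a, at 0.40, at 28.5, Tet3, at 0.45, at 37.0, and Tet2, at 0.52, at 45.5. Other probes of these genes stood elsewhere, with Idh2 A_51_P331507, at 0.56, at 49.6 and Tet3 A_55_P2175260, at 0.92, at 76.0. The dimmer Tet2 probes stood at 54.3 and 67.2, and Dnmt3a A_52_P169048, at 0.32, at 17.3. Both Tet3 probes and Dnmt3a A_52_P169048 carried the floor on the displaced arrays.

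**Figure D3:**
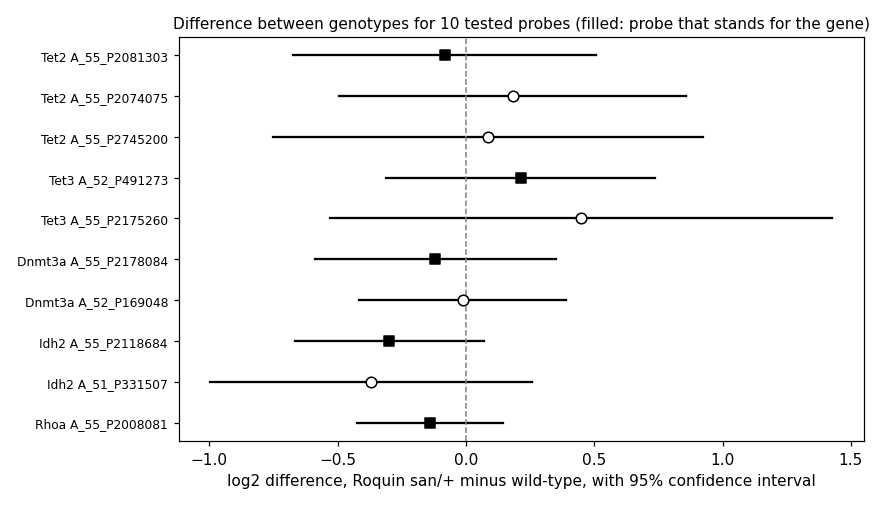
Log2 difference between genotypes (horizontal axis, Roquin san/+ minus wild-type) with its 95% confidence interval from limma for the 10 tested probes, filled squares marking the probe that stands for each gene. Every interval crosses 0, from the narrowest at Rhoa (-0.43 to 0.14) to the widest at the dim Tet3 probe A_55_P2175260 (-0.53 to 1.43).

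**Figure D4:**
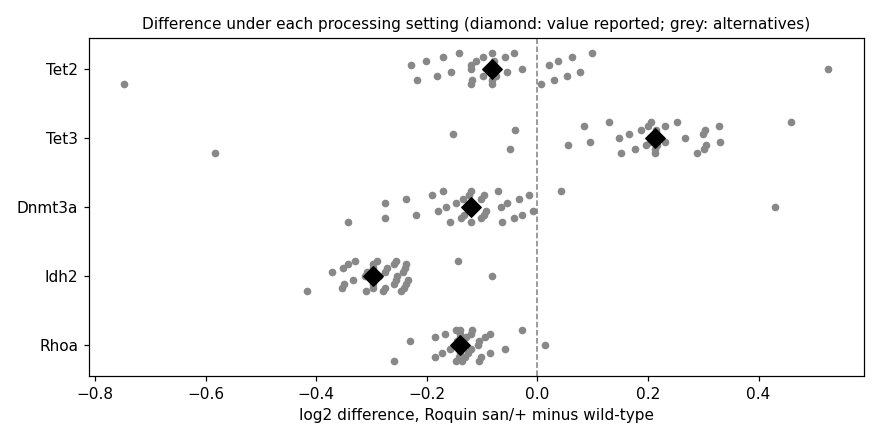
Log2 difference between genotypes (horizontal axis, Roquin san/+ minus wild-type) for each of the 5 genes, with black diamonds for the value reported and grey points for each alternative setting. The points of Idh2 all lie below 0, from -0.42 to -0.08, and those of Tet2, Tet3, Dnmt3a and Rhoa fall on both sides of 0.

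The genes around these 5 were described by 8 lists with 155 entries, of which 145 were tested, each gene by its brightest tested probe. No list gene was called, and 4 had an unadjusted limma p below 0.05, with 3 higher and 1 lower in Roquin san/+. Over all 21554 genes tested, 3.11% were higher and 0.589% lower at that threshold, and the median difference was 0.07. The adjusted p of the genes named next was 0.884 to 0.888 in each case (limma).

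Among DNA methyltransferases and methyl-CpG readers, the family of Dnmt3a, 13 of 14 genes were tested, 3 were above 0 and 10 below, and the median difference was -0.08. The tally moved with the processing, to 7 above and 6 below with normexp (median 0.0019) and to 6 and 7 with both replicate and slide as blocks (median -0.046). Dnmt3b, the sister enzyme of Dnmt3a in de novo methylation, had the smallest p of this list. Its brightest probe ran from -1.28 to -0.81 in Roquin san/+ and from -0.80 to -0.28 in wild-type, so that the genotypes did not overlap, although by a gap of little size. Of 21554 genes, 3 (0.0139%) were lower without overlap and 10 (0.0464%) were higher without overlap. The Dnmt3b difference was -0.37 (95% CI -0.67 to -0.07, limma unadjusted p = 0.0187, adjusted p = 0.884), and its two-sided exact permutation p was 5.83e-04, the smallest that 3432 arrangements can give, unadjusted for the number of genes. Without any 1 array it lay between -0.40 and -0.32, and over all alternatives together between -0.49 and -0.20. Its unadjusted limma p was not below 0.05 in 9 of 35 other fits, among them those with slide as a block, with both blocks, on each slide alone and without both displaced arrays. A second, dimmer Dnmt3b probe differed by -0.47 with overlap of the genotypes (limma unadjusted p = 0.144). Dnmt1, the maintenance methyltransferase, differed by -0.22 (95% CI -0.66 to 0.21), and Mbd1, a methyl-CpG binding protein, by -0.27 (95% CI -0.82 to 0.27). Dnmt1 was -0.099 without wild-type C, and Mbd1 was -0.085 without Roquin san/+ F.

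Among demethylation genes and TET partners, 16 of 17 were tested, 8 on either side of 0, with a median of 0.00 that ran from -0.12 to 0.072 over the other fits. Gadd45b, a stress-induced gene linked to active demethylation, ran from -1.37 to -0.20 in Roquin san/+ and from -2.30 to -1.11 in wild-type. The difference of 0.78 had a 95% CI of 0.29 to 1.26 (limma unadjusted p = 0.00384, adjusted p = 0.884, two-sided exact permutation p = 0.00466). All alternatives kept it above 0, from 0.51 on slide 2 alone (limma unadjusted p = 0.110) to 1.30 on slide 1 alone. The unadjusted p was not below 0.05 in 2 of 35 other fits, slide 2 alone and the deposited probe names (limma unadjusted p = 0.0589). Cxxc5, a CXXC protein that binds unmethylated CpG, differed by 0.57 (95% CI -0.20 to 1.34), and Gadd45g by 0.46 (95% CI -0.22 to 1.14). Without Roquin san/+ F these were 0.29 and 0.20.

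Around Idh2, 23 of 24 genes of isocitrate and 2-oxoglutarate metabolism were tested, and 18 lay below 0 and 5 above, with a median of -0.11. The median stayed below 0 in 35 other fits, from -0.23 to -0.022, with 10 genes above and 13 below 0 with both blocks. Over all genes 42.3% lay below 0. Among the genes with the smallest p were the succinate dehydrogenase subunits Sdhd at -0.37 (95% CI -0.81 to 0.08) and Sdhc at -0.25 (95% CI -0.61 to 0.11), of which Sdhd was -0.24 without wild-type C. Of the histone demethylases that use 2-oxoglutarate as TET enzymes do, all 15 were tested, with a median of 0.01 that ran from -0.11 to 0.077 over the other fits. Kdm3a differed by -0.20 (95% CI -0.61 to 0.21), Kdm5b by -0.16 (95% CI -0.51 to 0.19) and Phf8 by -0.30 (95% CI -0.99 to 0.39). Without Roquin san/+ C, Kdm3a was -0.10 and Phf8 was 0.0088, without wild-type C Kdm3a was -0.33, and without Roquin san/+ F Kdm5b was -0.075.

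The family of small GTPases around Rhoa was tested for 16 of 19 genes and had a median of 0.09, from -0.035 to 0.16 over the other fits. Rhod differed by 0.76 (95% CI -0.29 to 1.82), Rac3 by 0.32 (95% CI -0.16 to 0.81) and Rhoc, the close relative of Rhoa, by -0.30 (95% CI -0.76 to 0.15). Without Roquin san/+ C these were 0.40, 0.12 and -0.17. Of the exchange factors, GTPase activators and inhibitors, which switch these GTPases on and off, 29 of 32 were tested, with a median of 0.08, from -0.047 to 0.24 over the other fits. Arhgap1, an activator of GTP hydrolysis by this family, differed by 0.51 (95% CI 0.01 to 1.01, limma unadjusted p = 0.0449, adjusted p = 0.884), but its second probe differed by -0.06. The Arhgap1 difference was 0.32 without Roquin san/+ C and ran from 0.12 to 0.62 over 35 other fits, in 19 of which the unadjusted p was not below 0.05, among them slide as a block, the replicate block and 9 of the 14 fits without 1 array. Vav2, an exchange factor, differed by 0.69 (95% CI -0.33 to 1.72), and Net1, an exchange factor for RhoA, by -0.32 (95% CI -0.74 to 0.11). Vav2 was 0.22 without Roquin san/+ C, and Net1 was -0.20 without wild-type C.

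Of the effectors that bind the active GTPases, 21 of 22 were tested, with a median of 0.01, from -0.11 to 0.17 over the other fits. Rtkn, rhotekin, an effector that binds GTP-loaded RHOA, ran from -3.90 to -2.35 in Roquin san/+ and from -4.56 to -3.83 in wild-type. Its difference of 0.88 (95% CI 0.40 to 1.36) had the smallest p of all list genes (limma unadjusted p = 0.00136, adjusted p = 0.884, two-sided exact permutation p = 0.00175). All alternatives kept it above 0, from 0.15 on slide 2 alone (limma unadjusted p = 0.530) to 1.51. Diaph2, a formin, differed by 0.32 (95% CI -0.11 to 0.75), and the kinase Limk1 by 0.44 (95% CI -0.18 to 1.06), or 0.19 without Roquin san/+ C.

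Of 12 signalling genes that are mutated in human Tfh lymphoma besides these 5, all were tested, 4 above and 8 below 0, with a median of -0.09. The tally turned to 9 above and 3 below on slide 2 alone (median 0.10) and without both displaced arrays and Roquin san/+ C and F (median 0.17), and it was 6 and 6 with array weights (median 0.029). The transcription factor Stat3 differed by 0.33 (95% CI -0.08 to 0.74), the kinase Pdpk1 by -0.20 (95% CI -0.58 to 0.19) and the receptor Tnfrsf21 by 0.38 (95% CI -0.37 to 1.13). Without Roquin san/+ C, Pdpk1 was -0.11 and Tnfrsf21 was 0.24, and without wild-type E they were -0.10 and 0.61.

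**Figure D5:**
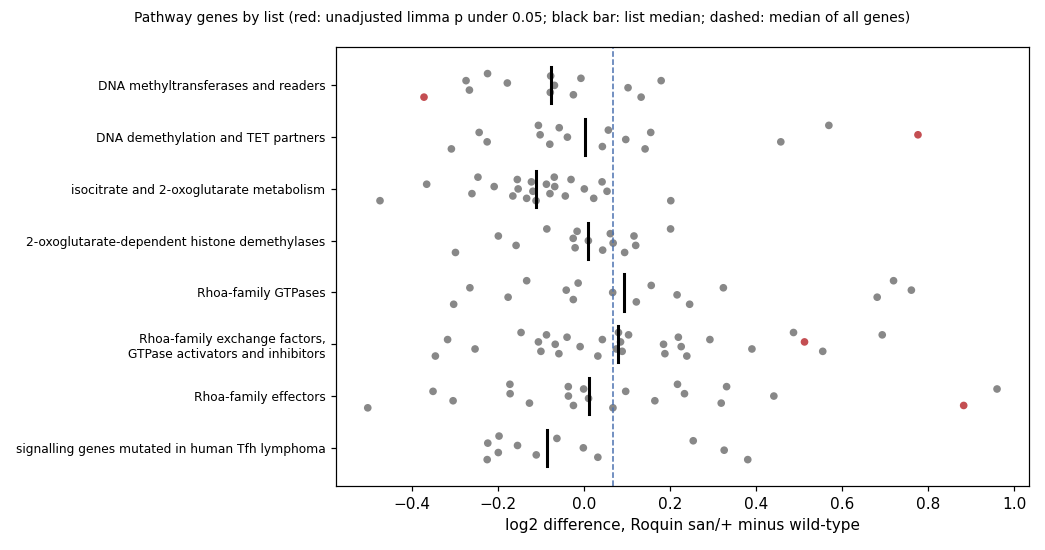
Log2 difference between genotypes (horizontal axis, Roquin san/+ minus wild-type) for each tested gene of the 8 lists, red for an unadjusted limma p below 0.05, with black bars for list medians and a dashed line for the median of all 21554 genes (0.07). The 4 red points are Dnmt3b, Gadd45b, Arhgap1 and Rtkn, and the list medians run from -0.11 to 0.09.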

How the data were processed

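RNA of CD4+ T-cells was labelled with Cy3 and read on 1-colour arrays. The authors deposited spot intensities from Agilent Feature Extraction 10.5.1.1, whose processed signal has the local background subtracted and carries a floor in place of a level for spots not above background. They also deposited log2 values of the same arrays, made by a method not given in the sources used here. Each array held 62976 spots and 56605 probes.

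Every array was set against the median array over shifts of up to 6 grid rows and columns, and Roquin san/+ G and wild-type E were moved by 2 rows. Control spots were left out, spots of a probe averaged, and the log2 of each array's 75th percentile over 24081 probes detected on all 12 well-placed arrays subtracted. Probes well above background on at least 6 of these 12, of either genotype, passed the filter (33120, of which 289 lacked a value after the move). For the remaining 32831, genotypes were compared by limma (version 3.58.1, lmFit and eBayes under R 4.3.3), with Benjamini-Hochberg adjustment at a threshold of 0.05. Single probes were also tested by two-sided exact permutation of the 3432 arrangements. Reading and tabulation used numpy 2.4.6 and pandas 2.3.3 under Python 3.11.15, and the fit was tested on simulated data. The number of arrays limits the precision.

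The probe with the highest mean among tested probes stood for a gene. Named were the 5 genes with all their probes, Rc3h1, the 3 genes of each list with the smallest limma p, and the 3 genes most like each member, of which some are not reported here. The genes, lists and tests were chosen with earlier results of these data known.

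Alternatives were normexp background correction (offset 50), other percentiles, quantile normalization, other filters, slide as a block and each slide alone, the replicate letter as a block, a variance trend, array weights, the authors' log2 values, the deposited probe names, and leaving out arrays. Leaving out Roquin san/+ C or C and F together with the displaced arrays was chosen after seeing the data.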

Additional observations from a re-analysis of the deposited data

Results flagged for a closer look

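Dixon's test for a single array apart from the rest was applied to 12 groups of 7 arrays, the level of each of the 5 genes and the share of probes well above background in each genotype, and chance marks about 1 group in 20. Dnmt3a was lowest on wild-type C, at -1.78 where its 6 companions ran from -0.96 to -0.47. This array had a correlation of 0.959 with the median array, the highest summed level of the plasma cell markers of all arrays, 5.76, and the lowest summed level of the CD4+ T-cell markers in wild-type, 5.78, and the part of these in its Dnmt3a level was not tested. Detection, the percentage of all probes called well above background, was 21.9% on Roquin san/+ G where the remaining Roquin san/+ arrays ran from 54.8% to 75.5%. It was 19.4% on wild-type E where the remaining wild-type arrays ran from 53.5% to 64.6%. Both are displaced arrays, on which Tet3 has only a floor.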

How the results depend on the processing

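The count of called probes was 0 in the reported fit and in each of the 35 other fits, with 54 to 3349 probes at an unadjusted p below 0.05 and a smallest adjusted p of 0.147 (limma). No member was called in any of them. Idh2 was below 0 throughout, and its exact permutation p was below 0.05 in 4 of 30 computations, at -0.42 with the percentile over all probes (p = 0.0315) and at -0.35, -0.35 and -0.37 without Roquin san/+ A, B and D (p = 0.0390, 0.0449 and 0.0268). The median difference of all tested probes, 0.047 as reported, was 0.21 with normexp, 0.34 with no filter, 0.10 with the percentile over probes detected on all 14 arrays, -0.071 with that over all probes and -0.086 with quantile normalization, and gene differences are relative to these. Under the filter for all 7 arrays of a genotype the median difference of all tested probes was -0.056, and Tet3 had no value. The number of arrays and, on the displaced arrays, the floor limit the values of dim probes. The cause of the following changes was not tested.

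Of the reported differences, Tet2 changed sign to 0.53 on slide 1 alone, 0.020 with array weights, 0.0064 with the deposited probe names, 0.077 without both displaced arrays, 0.037 without Roquin san/+ C as well, 0.030 for the same arrays with normexp, and 0.062 as the mean of all its probes. Tet3 became -0.58 with quantile normalization, -0.15 with the authors' values, -0.050 on slide 2 alone and -0.040 with normexp without Roquin san/+ C. Dnmt3a became 0.043 without both displaced arrays and Roquin san/+ C and F, and 0.43 as the mean of its 4 probes, of which 2 were mostly at background. Rhoa became 0.013 on slide 1 alone.

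Rc3h1 became 0.0043 without both displaced arrays, 0.10 without Roquin san/+ C as well, 0.087 without F too, and 0.088 with normexp without the displaced arrays and C. Tet2 A_55_P2745200 turned to -0.11 with slide as a block, -0.79 on slide 2 alone, -0.071 with the replicate and slide blocks, -0.14 with quantile normalization, -0.068 with the authors' values, -0.033 with the deposited names, -0.032 with the percentile over all probes, and -0.090 and -0.27 without the displaced arrays and C, or C and F. Dnmt3a A_52_P169048 turned to 0.21 with normexp, 0.042 with the percentile over probes detected on all 14 arrays, 0.035 with slide as a block, on slide 1 and on slide 2, 0.057 with both blocks, 0.039 without the displaced arrays and 0.079 for normexp without these and C. Tet2 A_55_P2074075 was -0.50 with quantile normalization and Tet3 A_55_P2175260 was -0.36 on slide 2 alone.

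Without any 1 array, differences ran from -0.22 to 0.099 for Tet2, 0.084 to 0.33 for Tet3 and -0.28 to -0.033 for Dnmt3a. They ran from -0.032 to 0.48 for Tet2 A_55_P2745200 and from -0.0091 to 0.35 for Tet2 A_55_P2074075. For Dnmt3a A_52_P169048 they ran from -0.11 to 0.057, and for Phf8 from -0.40 to 0.0088. The sign of the brightest Tet2 probe turned without Roquin san/+ E (0.099) or wild-type E (0.054), and that of Phf8 without Roquin san/+ C (0.0088).

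Among list genes on slide 2 alone, Mbd1 was 0.27, Gadd45g -0.035, Sdhc 0.068, Rhoc 0.021, Vav2 -0.051, Limk1 -0.016, Pdpk1 0.043 and Tnfrsf21 -0.43. Limk1 was -0.035 with both blocks, Rhod -0.21 with quantile normalization and Tnfrsf21 -0.051 with the authors' values. Without the displaced arrays and C, Phf8 was 0.061 and Pdpk1 0.051, or 0.041 and 0.035 with normexp. Without F too, Mbd1 was 0.16, Gadd45g -0.073, Phf8 0.044, Rhoc 0.027 and Pdpk1 0.076.

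Arrays were not paired by their letters, since deviations of same-lettered arrays correlated at -0.28 to 0.41, with 2 of 7 pairs over 0.1. With the replicate block the count of called probes was 0 and 801 had an unadjusted p below 0.05. Adding the slide block to it gave -0.29 for Idh2 and -0.34 for Dnmt3a.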

Other observations

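The genes whose levels ran most like those of each member were sought over the 12 well-placed arrays by the root-mean-square difference between log2 levels centred on each probe's mean, among 15438 tested genes whose array name is a RefSeq symbol or synonym. For Rhoa they included Tmed5 and Katnbl1, with differences of 0.0966 and 0.109. For Idh2 they were Mat2b, Yme1l1 and Mesd, at 0.121, 0.133 and 0.141. For Dnmt3a they were 2610008E11Rik, Rasa1 and Acvr1b, at 0.0975, 0.112 and 0.121. For Tet2 they were Xlr, Tsen34 and Tent5c, at 0.156, 0.163 and 0.193, and for Tet3 they were Rsrc1, Olfr47 and Zfp974, at 0.152, 0.164 and 0.165. The median difference over all 15438 genes was 0.492 for Rhoa, 0.548 for Idh2, 0.582 for Dnmt3a, 0.638 for Tet3 and 0.648 for Tet2. A small value needs a steady gene as much as a like pattern, and arrays share scaling and quality, so these names are a description only.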
